A study of Mus musculus with 9 samples.

Results

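Cells differentiated for 2.5 days without doxycycline (D2.5 Dox-) were set against cells differentiated for 3.5 days with it (D3.5 Dox+). These are 2 of the 9 arrays of a study of mouse embryonic stem (ES) cells, 1 array each. They were paired because D3.5 Dox+ lies nearest to D2.5 Dox- among the 4 Dox+ arrays over all genes, so the pairing itself comes from the measured values. Differences are D2.5 Dox- minus D3.5 Dox+ on the log2(signal + 16) scale. Each gene's value is that of its brightest probe set among those with 1 gene symbol, and 8716 of 18193 genes passed a filter of 50 signal units on 2 or more arrays. Because the pair was chosen from these values, all differences within it are given as a description, with no test.

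The study followed ES cells in which doxycycline governs a version of protein kinase A (PKA), the cyclic AMP-dependent kinase, that is always active. All cells carried that system, and all came from cultures kept with leukemia inhibitory factor (LIF), which holds ES cells undifferentiated, and with doxycycline at 1 µg/ml. D2.5 Dox- and D3.5 Dox+ cells, and the other differentiating cells at D0.5, D1.5, D2.5 and D3.5, were grown in a serum medium without LIF, without or with doxycycline at 1 µg/ml. One further array holds undifferentiated ES cells. The labels do not settle which medium switched the kinase on, name no strain or clone and give no replicate, so the arms are called by their medium and no value has a replicate error.

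In the mouse embryo, epiblast cells that pass through the primitive streak turn off epithelial genes, switch on a set of T-box, homeobox and bHLH regulators, and leave as mesoderm or endoderm. Wnt, Nodal, BMP and FGF ligands drive this step, and secreted antagonists and feedback genes that it induces limit them. The first mesoderm to leave expresses receptors such as Kdr and Pdgfra and gives rise to blood, vessel and heart precursors, which makes ES cells in serum a common model of these steps. In pooled cells such as these, fewer cells of a type and less RNA per cell cannot be told apart.

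The 3 genes taken as markers of the stage showed how far the match goes. Mixl1, a homeobox regulator of the streak, had a signal of 1177 on D2.5 Dox- and 302 on D3.5 Dox+. Wnt5a, a ligand of non-canonical Wnt signalling, had 368 on D2.5 Dox- and 49.6 on D3.5 Dox+. Kdr, the receptor for vascular endothelial growth factor that marks the mesoderm of blood and vessels, had 274 on D2.5 Dox- and 21.1 on D3.5 Dox+. All 3 markers were present on D2.5 Dox-, whereas on D3.5 Dox+ only Mixl1 was above 50. The arrays were thus matched by their overall distance and not by each marker.

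Over the 8716 genes, 335 (3.84%) were at least 2-fold apart between D2.5 Dox- and D3.5 Dox+, with a standard deviation (SD) of the differences of 0.42. From D2.5 Dox-, the other Dox+ arrays were further off, with 1310 genes apart at D0.5, 845 at D1.5 and 685 at D2.5. The neighbouring days of its own medium were also further off, with 462 genes apart at D1.5 and 443 at D3.5. D3.5 Dox+ was thus the nearest of all 8 other arrays to D2.5 Dox-. The reverse did not hold. D3.5 Dox+ differed by at least 2-fold at 182 genes from D2.5 Dox+, at 213 from D1.5 Dox- and at 335 from D2.5 Dox-, so its nearest Dox- array was that of D1.5 (SD 0.37, against 0.42 for D2.5). These comparisons share the arrays of the pair. The closest 2 arrays of different medium, D0.5 Dox- and D0.5 Dox+, had 10 genes apart and an SD of 0.20, which is the only guide here to the spread between arrays of like cells.

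**Figure D1:**
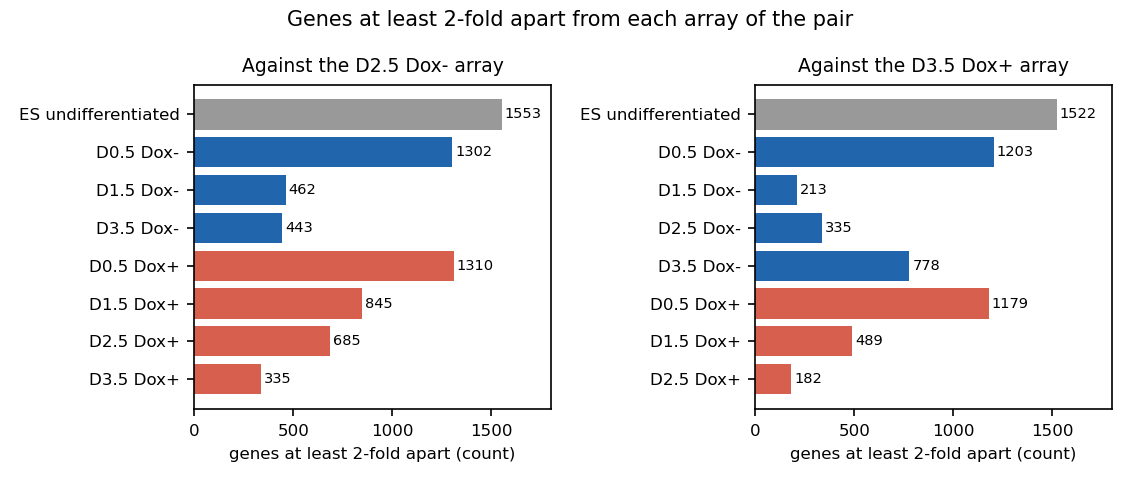
Number of the 8716 tested genes at least 2-fold apart (horizontal axis, counts) between each of the other 8 arrays and D2.5 Dox- (left) or D3.5 Dox+ (right), with Dox- bars in blue, Dox+ bars in red and undifferentiated ES cells in grey. D2.5 Dox- has its shortest bar for D3.5 Dox+ (335), while D3.5 Dox+ has shorter bars for D2.5 Dox+ (182) and D1.5 Dox- (213).

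Of the 335 genes, 161 (1.85%) were higher on D2.5 Dox- by 2-fold or more and 174 (2.0%) were lower by as much. The median signal of the 161 higher genes was 163 on D2.5 Dox- and 41.9 on D3.5 Dox+, and 68 of them were at 50 or more on D3.5 Dox+. They were dim at D0.5 in both media, with medians of 17.8 in Dox- and 16.8 in Dox+. For the 174 lower genes the median was 52.7 on D2.5 Dox- and 153 on D3.5 Dox+. On earlier arrays their medians were 126 on D1.5 Dox- and 168 on D2.5 Dox+. Of the higher genes, 44 were at 50 or more on D0.5 Dox-, and of the lower genes 154 were on D1.5 Dox- and 173 on D2.5 Dox+. The higher genes were thus mostly dim early in either medium, and the lower genes were mostly bright on both of these earlier arrays. Just inside the 2-fold limit lay Notch1 (1.01), Mcc (1.01) and Arid3b (1.02), and just outside it Slc4a4 (0.99), Hmga2 (0.99) and Cited2 (0.99).

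**Figure D2:**
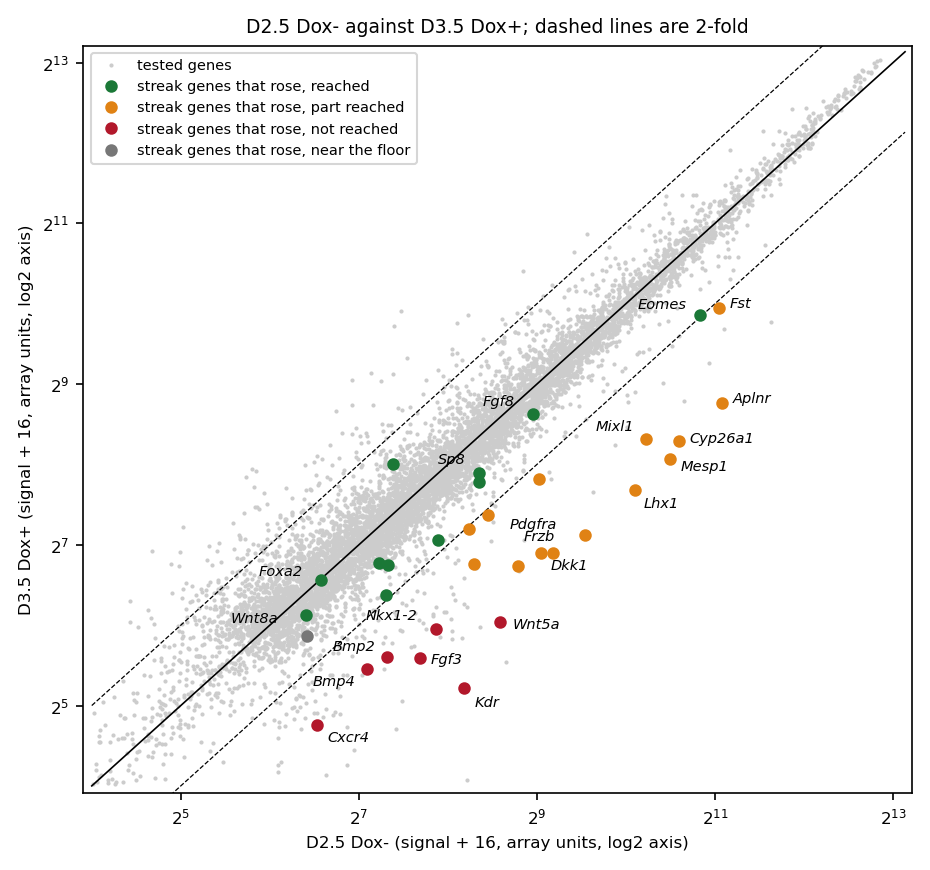
Signal + 16 on D2.5 Dox- (horizontal) and D3.5 Dox+ (vertical), both on log2 axes in array units, for all tested genes (grey) and for the 33 streak genes that were at least 2-fold higher on D2.5 Dox- than on D0.5 Dox- (coloured by how far D3.5 Dox+ reached them). Most grey points lie between the dashed 2-fold lines, and the streak genes run from the diagonal (Foxa2) to far below it (Kdr, 273.6 against 21.1).

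Each arm was next followed from its own D0.5 array, so that the 2 changes share no array. Between D0.5 and D2.5 in Dox-, 728 genes (8.35%) rose and 574 (6.59%) fell by at least 2-fold. Between D0.5 and D3.5 in Dox+, 726 genes (8.33%) rose and 453 (5.2%) fell. The arms thus changed a similar number of genes upward, 1 day apart. Of the 710 genes that rose in Dox- and had a signal of at least 50 on D2.5 Dox-, 475 (66.9%) also rose at least 2-fold in Dox+ by D3.5, and 0 fell as much. Across the 8716 genes the 2 changes had a Pearson correlation of 0.85 and a slope of 0.79 of Dox+ on Dox-. Genes are not independent replicates, and all points share these 4 arrays and their scale.

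How far D3.5 Dox+ got was put in 4 classes for genes with at least 50 on D2.5 Dox-. A gene was reached if D3.5 Dox+ was also at 50 or more and was higher or less than 2-fold lower. It was part reached if D3.5 Dox+ was at 50 or more but at least 2-fold lower. It was not reached if D3.5 Dox+ was under 50 and at least 2-fold lower, and near the floor if it was under 50 but within 2-fold. Of the 710 genes that rose, 537 (75.6%) were reached, 56 (7.89%) part reached, 75 (10.6%) not reached and 42 (5.92%) near the floor. The D3.5 Dox+ signal had a median of 82.1% of the D2.5 Dox- signal over these genes. Choosing genes that were high on D2.5 Dox- by itself favours a lower value on the other array, so these shares serve only as a background.

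The streak genes were described through 4 lists of transcription factors, ligands, antagonists and receptors, of which 69 genes were analysed here. T (brachyury) was not analysed here. Of the 69, 53 had at least 50 on D2.5 Dox-, and 52 passed the filter on low signals. Of these 52, 22 were higher on D2.5 Dox- by 2-fold or more and 4 were lower by as much, against 1.85% and 2.0% of all tested genes. Their median difference was 0.79, and over all 69 it was 0.66, against -0.0035 for all tested genes. Of the 22, Nkx1-2, Wnt5a, Fgf3, Bmp2, Kdr and Cxcr4 were under 50 on every Dox+ array and on the ES array. These 6 passed the filter through Dox- arrays alone.

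Of the 53 streak genes, 27 were reached, 15 part reached, 9 not reached and 2 near the floor. Among the 27, Lefty1, Gdf3 and Apela were more than 2-fold higher on D3.5 Dox+. Most of the reached genes had not risen in Dox- since D0.5. Of the 33 that had risen, 11 (33.3%) were reached, 14 (42.4%) part reached, 7 (21.2%) not reached and 1 (3.03%) was near the floor, against 75.6%, 7.89%, 10.6% and 5.92% of all 710. The 33 had also risen further in Dox-, by a median of 3.67, against 1.57 for all 710. These shares thus do not compare genes of like rise. The D3.5 Dox+ signal was between 7.71% (Kdr) and 159% (Fzd2) of the D2.5 Dox- signal, with a median of 31.0%. Yet 27 of the 33 (81.8%) had risen at least 2-fold in Dox+ by D3.5. So most of these genes were on in D3.5 Dox+ cells, at a lower level than on D2.5 Dox-. The rise was recent: 7 of the 33 had reached 50 on D2.5 Dox+, whereas 14 had done so on D1.5 Dox-. Of all 710 genes that rose, 501 were at 50 or more on D2.5 Dox+ and 547 on D1.5 Dox-.

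**Figure D3:**
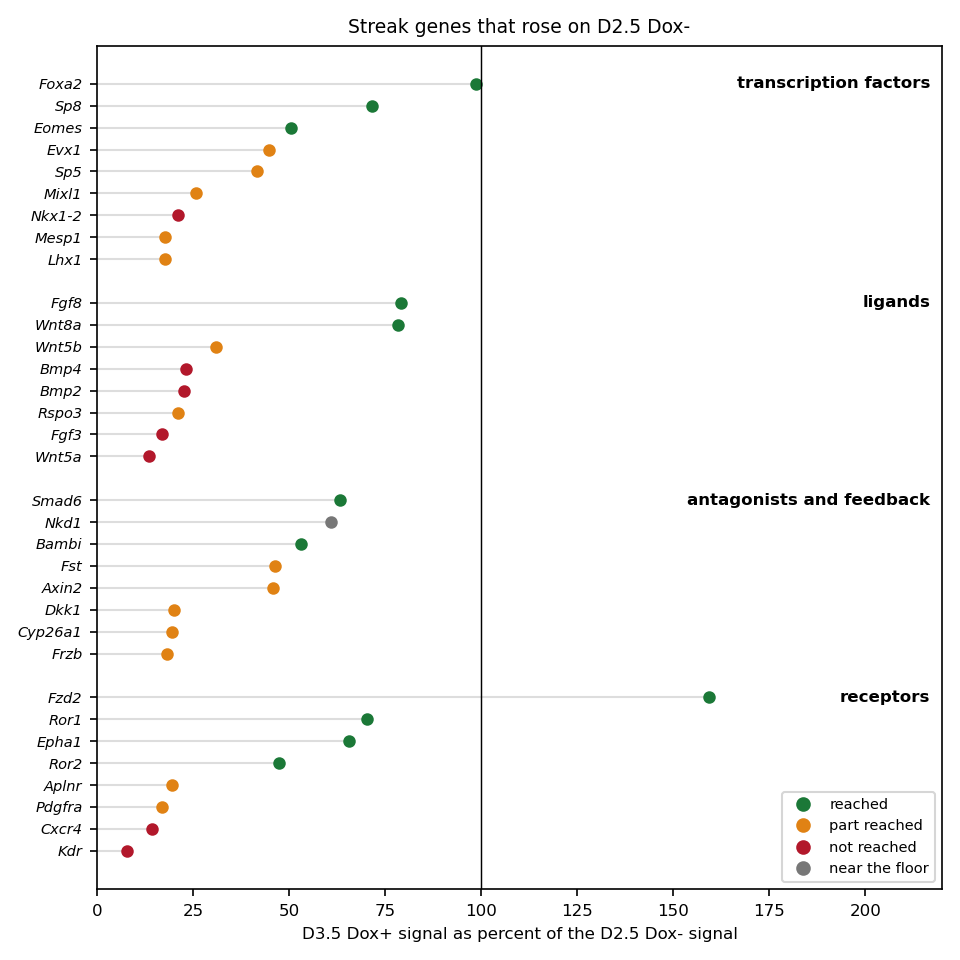
D3.5 Dox+ signal as a percent of the D2.5 Dox- signal (horizontal axis) for the 33 streak genes that rose on D2.5 Dox-, grouped by role and coloured by class. All but Fzd2 (159%) lie left of the 100% line, with Foxa2 (98.6%), Fgf8 (79.0%) and Wnt8a (78.3%) nearest to it and Kdr (7.71%) furthest.

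Among the transcription factors, 9 had risen, and 3 of these, Foxa2, Sp8 and Eomes, were reached. Foxa2, a forkhead factor of the anterior streak and endoderm, had 79.7 on D2.5 Dox- and 78.6 on D3.5 Dox+. It was under 20 on every other array, so it came on a day apart in the 2 arms, dim in both. In Dox- it was back at 11.5 on D3.5, while in Dox+ D3.5 was the last array, so no later fall could be seen. Sp8, a zinc finger factor, had 9.6, 68.6, 311 and 108 in Dox- from D0.5 to D3.5, and 14.7, 17.8, 25.8 and 223 in Dox+. Eomes, the T-box factor needed for mesoderm to leave the streak and for definitive endoderm, had 65.9, 118, 1808 and 540.3 in Dox- from D0.5 to D3.5, and 52.7, 40.9, 42.2 and 911 in Dox+. The D3.5 Dox+ level of Eomes was above that of D3.5 Dox-, and its difference of 0.98 lies at the edge of the 2-fold limit. A second probe set gave 1450.1 on D2.5 Dox- and 779 on D3.5 Dox+, a difference of 0.88.

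Mixl1 (1.91), Evx1 (1.08), Lhx1 (2.41), Mesp1 (2.43) and Sp5 (1.20) were part reached. Mixl1 had 9.8, 21.0, 1177 and 465 in Dox- from D0.5 to D3.5, and 3.9, 9.8, 15.7 and 302 in Dox+. Mesp1, the bHLH factor of the earliest heart and vessel precursors, had 13.2, 13.8, 1432 and 696 in Dox-, and 9.9, 9.5, 14.6 and 253 in Dox+. Both were flat until D1.5 in Dox- and until D2.5 in Dox+, and then came on within 1 day in each arm, less far in Dox+. Lhx1, a LIM homeobox factor of anterior mesendoderm, had 1083 on D2.5 Dox- and 190.1 on D3.5 Dox+, with a second probe set at 651 on D2.5 Dox- and 145.5 on D3.5 Dox+. Evx1, a homeobox gene of the posterior streak, had 334 on D2.5 Dox- and 149.7 on D3.5 Dox+, and Sp5, a target of Wnt signalling, had 504.5 on D2.5 Dox- and 210.5 on D3.5 Dox+. Nkx1-2, a homeobox gene of the posterior epiblast, was not reached, with 218 on D2.5 Dox- and 46.1 on D3.5 Dox+. Gsc, the organizer homeobox gene, and Mesp2, a segmentation factor, were bright on D2.5 Dox- alone. Gsc had 113 on D2.5 Dox- and 41.0 on D3.5 Dox+, and Mesp2 129 on D2.5 Dox- and 20.2 on D3.5 Dox+, and neither passed the filter.

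Promoter windows (250 bases before to 50 after the start, from RefSeq on GRCm38.p6) are shown for a reached, a part reached and a not reached gene, to let their starts be compared. The window of Eomes is chr9:118477939-118478238 on the plus strand, that of Mesp1 chr7:79793541-79793840 on the minus strand and that of Kdr chr5:75978406-75978705 on the minus strand. Capitals mark matches to the motifs searched.
Eomes: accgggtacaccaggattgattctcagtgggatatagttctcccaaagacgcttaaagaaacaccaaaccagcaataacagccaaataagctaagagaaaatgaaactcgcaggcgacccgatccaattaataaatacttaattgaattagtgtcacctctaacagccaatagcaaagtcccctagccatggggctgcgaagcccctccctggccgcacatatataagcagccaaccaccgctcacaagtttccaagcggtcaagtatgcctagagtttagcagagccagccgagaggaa
Mesp1: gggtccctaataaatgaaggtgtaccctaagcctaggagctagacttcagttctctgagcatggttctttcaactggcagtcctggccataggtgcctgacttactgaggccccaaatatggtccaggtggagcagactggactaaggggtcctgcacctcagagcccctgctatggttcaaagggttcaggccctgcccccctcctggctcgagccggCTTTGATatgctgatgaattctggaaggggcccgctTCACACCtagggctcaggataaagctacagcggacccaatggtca
Kdr: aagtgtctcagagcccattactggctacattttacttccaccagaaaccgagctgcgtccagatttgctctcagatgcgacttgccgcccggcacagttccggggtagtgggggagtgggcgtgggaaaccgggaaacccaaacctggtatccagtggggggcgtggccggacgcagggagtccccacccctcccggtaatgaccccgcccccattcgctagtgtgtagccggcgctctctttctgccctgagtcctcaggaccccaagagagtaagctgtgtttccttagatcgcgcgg

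Of the 33 streak genes that rose, 23 had a window, and 4 motifs were searched on both strands. CTTTGAT, the core that TCF and LEF factors of Wnt signalling bind, is in 3.73% of all 32851 windows, and was found for Foxa2 among the reached genes and for Mesp1, Sp5 and Wnt5b among the part reached. TCACACC, a T-box core site, is in 3.98% of all windows and was found for Mesp1 alone, where it lies just past the start. TGACGTCA, the cyclic AMP response element that CREB binds, is in 1.79% of all windows and AATNCACA, bound by FOXH1 downstream of Nodal, in 3.6%. Neither of these was found for a reached, part reached or not reached gene, and none of the 4 motifs for a gene that was not reached. The reached genes had 11 windows, the part reached 12 and the not reached 5, too few to compare the classes. No match overlapped another in the windows shown. A match describes letters only.

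Of the ligands, 8 had risen, and only Fgf8 and Wnt8a were reached. Fgf8, which cells need to leave the streak, had 4.4, 69.3, 481 and 174 in Dox- from D0.5 to D3.5, and 0.8, 10.5, 55.1 and 379.7 in Dox+. Wnt8a, a canonical Wnt of the streak, had 68.8 on D2.5 Dox- and 53.9 on D3.5 Dox+ and was under 15 elsewhere. Both peaked on D2.5 in Dox- and were still climbing on D3.5 in Dox+. Wnt5b, a second non-canonical Wnt, had 298 on D2.5 Dox- and 92.2 on D3.5 Dox+ and was part reached. So was Rspo3, a secreted amplifier of Wnt signalling, with 427 on D2.5 Dox- and 90.5 on D3.5 Dox+.

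Wnt5a, Fgf3, Bmp2 and Bmp4 were not reached. Wnt5a had 7.1, 7.8, 368 and 1132 in Dox- from D0.5 to D3.5, and 6.7, 3.6, 0.6 and 49.6 in Dox+, which is just under the limit of 50 and 5.86-fold below D2.5 Dox-. Its next brightest probe sets gave differences of 2.31 and 2.24. Fgf3, an FGF of the posterior streak, had 191 on D2.5 Dox- and 32.2 on D3.5 Dox+. Bmp2 had 3.2, 77.6, 143 and 642 in Dox-, and 5.7, 3.1, 4.9 and 32.5 in Dox+. Bmp4, the BMP that induces posterior mesoderm, had 51.1, 13.6, 120.1 and 1355 in Dox-, and 60.5, 19.7, 13.7 and 27.9 in Dox+. Of these 4, Bmp2, Bmp4 and Wnt5a went on rising in Dox- between D2.5 and D3.5, and Fgf3 did not (187 on D3.5 Dox-).

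Some ligands were alike or lower on D2.5 Dox-. Nodal had 701 on D2.5 Dox- and 960 on D3.5 Dox+, and Tdgf1, which encodes its coreceptor, had 3773 on D2.5 Dox- and 3471 on D3.5 Dox+, both within 2-fold. Gdf3, a Nodal-related ligand of pluripotent cells, had 80.2 on D2.5 Dox- and 253 on D3.5 Dox+ (-1.48). Apela, a peptide ligand of the Aplnr receptor, had 97.9 on D2.5 Dox- and 228 on D3.5 Dox+ (-1.10). Gdf3 had fallen further from its D0.5 level on D2.5 Dox- than on D3.5 Dox+, and so had Apela, which was back at 246 on D3.5 Dox-. Fgf4, an FGF of pluripotent cells, had 95.1 on D2.5 Dox- and 49.7 on D3.5 Dox+, near the floor.

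The antagonists and feedback genes held none that was not reached. Bambi and Smad6, inhibitors of BMP signalling, were reached. Bambi had 222 on D2.5 Dox- and 118 on D3.5 Dox+, and Smad6 had 144 on D2.5 Dox- and 91.1 on D3.5 Dox+. Both were far higher on D3.5 Dox-, at 1377 and 1117. Nkd1, a feedback inhibitor of Wnt signalling, had 69.7 on D2.5 Dox- and 42.5 on D3.5 Dox+.

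The part reached antagonists covered several pathways. Fst, which binds activin, had 16, 283, 2098 and 289 in Dox- from D0.5 to D3.5, and 4.5, 51.9, 107 and 973 in Dox+, a difference of 1.10. Axin2, the Wnt feedback gene, had 285 on D2.5 Dox- and 130.4 on D3.5 Dox+ (1.04). These 2 lie close to the 2-fold limit. Further off were the secreted Wnt inhibitors Dkk1 (2.15) and Frzb (2.28) and the retinoic acid degrading enzyme Cyp26a1 (2.30). Dkk1 had 511 on D2.5 Dox- and 103 on D3.5 Dox+, Frzb had 563.5 on D2.5 Dox- and 103.0 on D3.5 Dox+, and Cyp26a1 had 1528 on D2.5 Dox- and 299 on D3.5 Dox+. Lefty1 went the other way, with 153 on D2.5 Dox- and 829.5 on D3.5 Dox+ (-2.32). It is a Nodal antagonist, as is Lefty2, which had 419.5 on D2.5 Dox- and 213 on D3.5 Dox+ (0.93). In Dox- Lefty1 had 294, 639, 153 and 261 from D0.5 to D3.5, and in Dox+ 391, 1007, 1278 and 829.5. Sfrp1, a secreted Wnt inhibitor, was also lower on D2.5 Dox-, with 21.4, against 71.3 on D3.5 Dox+ (-1.22). The FGF feedback genes Spry2 (0.40), Spry4 (0.66) and Dusp6 (0.54) and the TGF-beta inhibitor Smad7 (-0.54) were within 2-fold.

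Among receptors, the Wnt receptors Ror1 (0.44), Ror2 (0.92) and Fzd2 (-0.62) and the ephrin receptor Epha1 (0.57) had risen and were reached. Ror1 had 133 on D2.5 Dox- and 93.8 on D3.5 Dox+, and Fzd2 had 151 on D2.5 Dox- and 241 on D3.5 Dox+. The receptors Aplnr, Pdgfra, Cxcr4 and Kdr were higher on D2.5 Dox-. Aplnr, the apelin receptor of migrating mesoderm, had 0.7, 124, 2154 and 1412 in Dox- from D0.5 to D3.5, and 7.2, 1.0, 1.2 and 418 in Dox+. Pdgfra, the platelet-derived growth factor receptor of paraxial and heart mesoderm, had 11.6, 15.8, 729 and 661 in Dox-, and 6.1, 17.5, 4.0 and 123.5 in Dox+. Both were part reached and had risen within the last day in Dox+. Cxcr4, a chemokine receptor of mesendoderm, had 76.6 on D2.5 Dox- and 11.0 on D3.5 Dox+.

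Kdr differed most in size among the streak genes (2.96, 7.81-fold). It had 17.4, 87.4, 274 and 483 in Dox- from D0.5 to D3.5, and 22.5, 8.7, 2.0 and 21.1 in Dox+. In Dox+ it therefore ended where it began, below the level that Dox- cells had on D1.5. Of the receptors that had not risen, Fgfr1 (0.16), Acvr2b (-0.17), Fzd7 (-0.41) and Epha2 (0.42) were within 2-fold, Epha4 was part reached (1.28), and Fzd8 was lower on D2.5 Dox- (10.1, against 51.2 on D3.5 Dox+). The other 14 listed streak genes were under 50 on both arrays, among them Wnt3, with 33.5 on D2.5 Dox- and 7.3 on D3.5 Dox+, Tbx6, with 40.2 on D2.5 Dox- and 17.1 on D3.5 Dox+, and Cer1, with 28.6 on D2.5 Dox- and 14.9 on D3.5 Dox+.

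**Figure D4:**
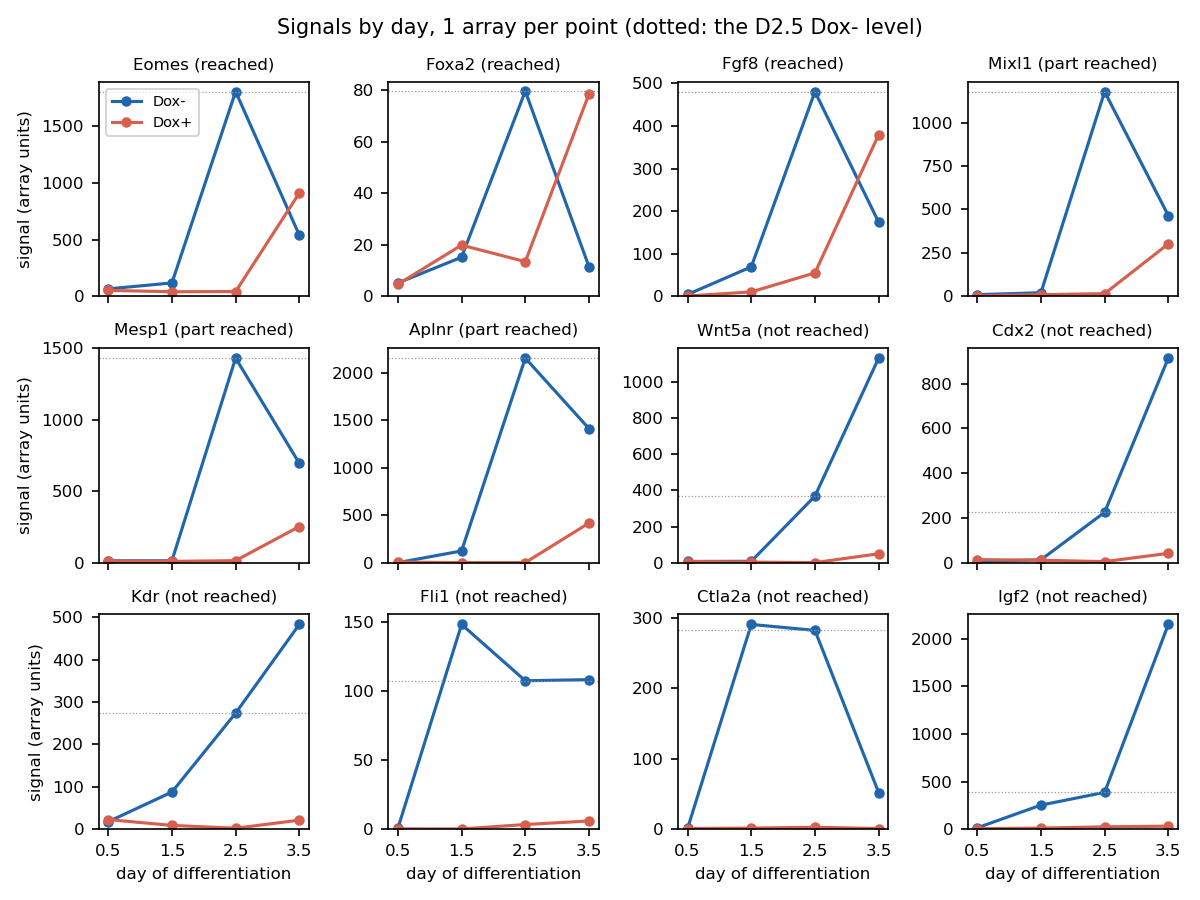
Signal (vertical axes, array units, each starting at 0) by day of differentiation for 12 genes in Dox- (blue) and Dox+ (red), 1 array per point, with the D2.5 Dox- level as a dotted line. The last red point comes near the dotted line for Foxa2 (78.6, against 79.7 on D2.5 Dox-) and Fgf8 (379.7, against 480.6), lies midway for Eomes (911, against 1808), lies well below it for Mixl1, Mesp1 and Aplnr, and stays near 0 for Fli1 and Ctla2a.

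The change in Dox- between D1.5 and D3.5 uses neither array of the pair. The genes and their classes were still chosen by the pair, so the shares below are a description. Of the 11 streak genes that rose and were reached, 4 (36.4%) were at least 2-fold higher on D3.5 Dox- than on D1.5 Dox-, and 2 were as much lower. This held for 13 (92.9%) of the 14 part reached genes, all but Fst, and for 7 of 7 that were not reached. The medians of this change were 0.55, 3.45 and 3.63. Over all genes that rose, the shares were 150 of 537 (27.9%) for reached, 46 of 56 (82.1%) for part reached and 49 of 75 (65.3%) for not reached. Foxa2 and Wnt8a, both reached, were under 20 again on D3.5 Dox-, whereas the 7 streak genes not reached were still above their D1.5 Dox- level. Other reached genes rose too. Bambi went from 166 on D1.5 Dox- to 1377 on D3.5 Dox-, and Smad6 from 101.5 to 1117.

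Of the streak genes named, 21 further probe sets had a signal of at least 50 on either array. For 14 of these the brightest probe set was at least 2-fold apart. All 14 had the same sign and 10 were also at least 2-fold apart.

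Genes of blood and vessel precursors were further from being reached than the streak genes. Of 15 tested, 12 were at least 2-fold higher on D2.5 Dox- and 0 lower, against 1.85% and 2.0% of all tested genes. The list had a median of 1.91 (1.45 over all 24 with a probe set). Of the 12 higher genes, 10 were under 50 on every Dox+ array and so passed the filter through other arrays. Fli1, an ETS family regulator of early blood and vessels, had 0.6, 148, 107.5 and 108 in Dox- from D0.5 to D3.5, and 0.2, 0.1, 3.3 and 5.9 in Dox+. Tal1, the bHLH master factor of blood, had 100.5 on D2.5 Dox- and 10.5 on D3.5 Dox+, after 205 on D1.5 Dox-. Etv2, which switches on Kdr-positive blood and vessel precursors, was one of the 2 part reached, with 183 on D2.5 Dox- and 55.2 on D3.5 Dox+, after 408 on D1.5 Dox-. Sox7 (1.82), Sox18 (1.91), Lmo2 (1.21), Hhex (1.31) and the semaphorin and growth factor coreceptor gene Nrp1 (2.43) were not reached.

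Most of these genes were already on at D1.5 in Dox-, as were most of all genes that rose. Of the 12 that had risen on D2.5 Dox-, 10 were at 50 or more on D1.5 Dox-, against 547 of all 710. On D2.5 Dox+ 0 of the 12 were, against 501 of all 710. Only 3 of the 12 (25.0%) rose at least 2-fold in Dox+ by D3.5, against 66.9% of all genes that rose. The D3.5 Dox+ signal of the 12 had a median of 10.5% of that on D2.5 Dox-. These 3 were Aplnr, Klhl6 and Flt1, a second receptor for vascular endothelial growth factor. Ctla2a, a cysteine protease inhibitor, differed most of all 8716 genes (4.15). It had 0.9, 291, 282 and 51.9 in Dox- from D0.5 to D3.5, and 0.8, 1.4, 2.6 and 0.8 in Dox+. Its close paralog Ctla2b (2.49) had 82.9 on D2.5 Dox- and 1.6 on D3.5 Dox+, and probes may not tell such near copies apart. Hbb-bh1, an embryonic globin, had 156 on D2.5 Dox- and 10.2 on D3.5 Dox+ (2.71). Egfl7, a vessel gene on in ES cells too, did not differ in this way, with 186.5 on D2.5 Dox- and 193 on D3.5 Dox+. Gata1, Pecam1, Tie1 and Runx1 were under 50 on both arrays.

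Of 8 tested lateral plate and heart genes, 5 were higher on D2.5 Dox- and 0 lower, against 1.85% and 2.0% of all tested genes. The list had a median of 1.31 (0.60 over all 22 with a probe set). Of the 5, Isl1, Tbx20 and Msx2 were under 50 on every Dox+ array and passed the filter through other arrays. Gata6, a zinc finger factor of heart and endoderm, had 24.0, 35.5, 280.4 and 335 in Dox- from D0.5 to D3.5, and 15.3, 9.8, 5.6 and 58.6 in Dox+. Isl1, the LIM homeobox factor of the second heart field, had 80.7 on D2.5 Dox- and 13.1 on D3.5 Dox+ (1.73), and Tbx20, a T-box heart factor, had 52.3 on D2.5 Dox- and 8.2 on D3.5 Dox+ (1.5). Meis2, a homeobox cofactor, had 345 on D2.5 Dox- and 166.5 on D3.5 Dox+ (0.98), and Msx1, a BMP-responsive homeobox gene, had 116 on D2.5 Dox- and 54.3 on D3.5 Dox+ (0.91). These 2 were reached. Unlike the vascular genes, 0 of the 6 that had risen were at 50 on D1.5 Dox-, and like them 0 were on D2.5 Dox+. Of all 710 genes that rose, 547 were at 50 or more on D1.5 Dox- and 501 on D2.5 Dox+. Hand1, Gata4 and Nkx2-5 were under 50 on both arrays.

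Paraxial mesoderm and Notch genes had 6 of 10 tested higher and 0 lower, against 1.85% and 2.0% of all tested genes. The list had a median of 1.12 (0.76 over all 19 with a probe set). Dll1, a Notch ligand, had 313 on D2.5 Dox- and 47.1 on D3.5 Dox+ (2.38), and was at 202 on D1.5 Dox+. Pcdh8, a protocadherin of the presomitic mesoderm, had 922 on D2.5 Dox- and 287 on D3.5 Dox+ (1.63), and was at 34.8 on D3.5 Dox-. Dll3, another Notch ligand, had 185 on D2.5 Dox- and 69.9 on D3.5 Dox+ (1.23). Nrarp, a feedback regulator of Notch, had 232 on D2.5 Dox- and 56.0 on D3.5 Dox+ (1.78), but its dimmer second probe set gave -0.13. Msgn1 and Tbx6, the defining factors of presomitic mesoderm, were under 50 on all of the arrays in both media. Among Hox and Cdx genes 1 of 24 passed the filter. Cdx2, the caudal factor of the posterior body, had 5.1, 13.1, 225 and 915 in Dox- from D0.5 to D3.5, and 13.9, 11.2, 4.9 and 42.0 in Dox+ (2.06).

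Genes of the epithelial to mesenchymal transition (EMT) had 4 of 18 tested higher and 0 lower, against 1.85% and 2.0% of all tested genes. The list had a median of 0.38. Cdh11, a mesenchymal cadherin, had 779.5 on D2.5 Dox- and 186 on D3.5 Dox+ (1.98), and Fn1, fibronectin, had 3153 on D2.5 Dox- and 859.7 on D3.5 Dox+ (1.86). Cdh2, N-cadherin, had 1346 on D2.5 Dox- and 499 on D3.5 Dox+ (1.40). All 3 were part reached, and each was higher on D3.5 Dox+ than on D2.5 Dox+. Cdh11 and Cdh2 had risen in Dox+ since D0.5, but Fn1 had not. Fn1 had 982.5 on D0.5 Dox+, 301.5 on D2.5 Dox+ and 859.7 on D3.5 Dox+. Zeb1, a repressor of E-cadherin, was the last of the 4 higher genes (1.30). It had 198, 25.6, 86.2 and 239 in Dox- from D0.5 to D3.5, and 193, 87.9, 23.9 and 25.5 in Dox+. On D2.5 Dox- it was thus still below its D0.5 level. Snai1, the repressor that starts this transition, was under 50 on both arrays, with 31.3 on D2.5 Dox- and 13.7 on D3.5 Dox+.

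Epithelial genes lay on the other side of the pair. Of 19 tested junction genes, 7 were at least 2-fold lower and 0 higher on D2.5 Dox-, against 2.0% and 1.85% of all tested genes. The list had a median of -0.72 (-0.71 over all 22 with a probe set). Cldn7, a tight junction claudin, had 17.6, 599, 248 and 131 in Dox- from D0.5 to D3.5, and 21.2, 197, 820.0 and 676 in Dox+ (-1.39). Crb3, an apical polarity protein, had 12.8, 139, 41.3 and 22.9 in Dox-, and 10.7, 63.8, 224 and 225 in Dox+ (-2.07). Both genes came on after D0.5 in either arm, had passed their peak by D2.5 in Dox-, and were still near it on D3.5 in Dox+. Cldn6 (-1.19), Ocln (-1.14), Cgn (-1.21), Grhl2 (-1.03) and Pkp2 (-1.11) made up the 7. Cdh1, E-cadherin, had 1208 on D2.5 Dox- and 2007 on D3.5 Dox+ (-0.72), and Epcam, an epithelial adhesion protein, had 1347 on D2.5 Dox- and 2136 on D3.5 Dox+ (-0.66). The keratin gene Krt8 was alike on the pair, with 529 on D2.5 Dox- and 545 on D3.5 Dox+ (-0.04).

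The genes of the primed epiblast, the state before the streak, had 6 of 23 lower and 2 higher, against 2.0% and 1.85% of all tested genes. The list had a median of -0.57. Pou3f1, a POU factor of the epiblast, had 430.3, 1419, 106 and 32.4 in Dox- from D0.5 to D3.5, and 336, 1379, 1225 and 512 in Dox+ (-2.12). The amino acid transporter gene Slc7a3 (-1.57), Foxd3 (-1.19) and Sall2 (-1.12) were lower too, and Cldn6 and Grhl2 are on both lists. Otx2, a homeobox factor of the anterior epiblast, had 671 on D2.5 Dox- and 1175 on D3.5 Dox+ (-0.79). Fgf5, the classical epiblast marker, had 25.8, 755, 570.3 and 21.0 in Dox-, and 23.7, 420, 899 and 708 in Dox+, a difference of -0.30. Fgf5 was thus within 2-fold on the 2 arrays, although other epiblast genes were lower on D2.5 Dox-. Lef1 (1.08) and Nkx1-2 (1.92), both also tied to the posterior streak, were the 2 higher ones.

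Of 15 core pluripotency genes 2 were lower and 0 higher, against 2.0% and 1.85% of all tested genes. Sox2, lost as cells enter the streak, had 284 on D2.5 Dox- and 909 on D3.5 Dox+ (-1.63), and Utf1, a chromatin factor of pluripotent cells, had 40.5 on D2.5 Dox- and 194 on D3.5 Dox+ (-1.89). Pou5f1, which encodes OCT4, had 1735 on D2.5 Dox- and 2099 on D3.5 Dox+ (-0.27). Nanog had 745, 685, 1324 and 306 in Dox- from D0.5 to D3.5, and 914, 828, 826 and 1887 in Dox+ (-0.51). After D0.5, Nanog was highest on D2.5 in Dox- and on D3.5 in Dox+, as Eomes was. The naive genes, which mark the ground state of ES cells, were down on both: 12 of 12 that fell in Dox- by D2.5 also fell at least 2-fold in Dox+ by D3.5, against 375 of 565 (66.4%) of all genes that fell. Of 16 tested, 2 were higher on D2.5 Dox-, Tbx3 (1.65) and Prdm14 (1.16), and 0 lower. Tbx3 is also a heart and mesoderm gene.

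Of 21 tested genes of the PKA and cyclic AMP pathway 1 was lower and 0 higher, a share near the 2.0% and 1.85% of all genes. The lower one was Abcc4, a membrane pump for cyclic AMP and other organic anions, and the gene furthest down of all 8716 (-2.44). It had 828, 860.5, 162 and 65.1 in Dox- from D0.5 to D3.5, and 842, 1506, 1871 and 946.5 in Dox+. Prkaca, the catalytic subunit of PKA, had 611 on D2.5 Dox- and 618 on D3.5 Dox+, and the sources used here do not say whether its probes detect the introduced form. Of 9 CREB-responsive genes tested 1 was higher, Fos, an immediate early gene, with 163 on D2.5 Dox- and 45 on D3.5 Dox+ (1.55). Egr1, another such gene, had 618 on D2.5 Dox- and 495 on D3.5 Dox+ (0.31).

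The other pathway lists overlap with the streak lists in part. Their counts stand against 1.85% higher and 2.0% lower of all tested genes. BMP pathway genes had 4 of 14 higher and 0 lower, and beside Bmp2 and Bmp4 these were Smad1, a signal transducer (1.05), and Msx2, a target (1.11). Of these 4, 2 were under 50 on every Dox+ array. The Id genes, direct BMP targets, were within 2-fold, with Id1 at 841 on D2.5 Dox- and 467 on D3.5 Dox+ and Id3 at 396 on D2.5 Dox- and 271 on D3.5 Dox+. Of 19 Nodal and activin genes Fst was higher and Lefty1 and Gdf3 were lower. FGF and ERK feedback genes had 2 of 17 higher, Fgf3 and the phosphatase gene Dusp4 (1.31), and non-canonical Wnt and planar polarity genes had 2 of 17 higher, Wnt5a and Wnt5b. Prickle1, a planar polarity gene, was reached, with 7.6, 228, 927 and 559 in Dox- from D0.5 to D3.5, and 6.3, 40.6, 120 and 466 in Dox+ (0.97). Of 8 definitive endoderm genes tested, Gata6, Sox17, Cxcr4 and Hhex were higher and Cldn6 and Trh, the thyrotropin-releasing hormone gene, lower. Of the 4 higher ones only Gata6 reached 50 on a Dox+ array, so the others passed the filter through Dox- and ES arrays alone. Sox17, the endoderm and vessel factor, had 2.3, 100.2, 90.0 and 85.2 in Dox-, and 6.1, 12.3, 7.2 and 14.2 in Dox+.

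**Figure D5:**
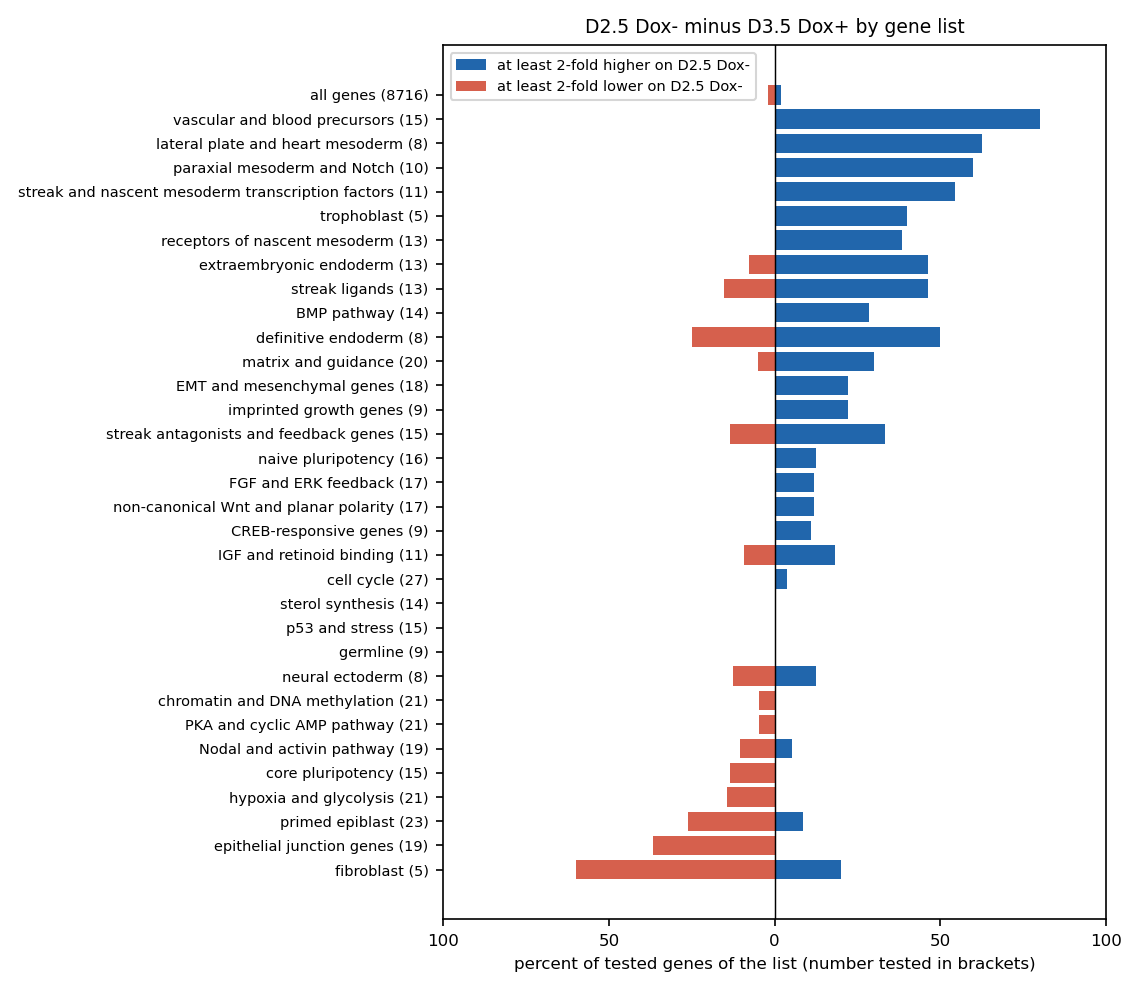
Percent of the tested genes of each list with at least 5 tested genes that were at least 2-fold higher (blue, to the right) or at least 2-fold lower (red, to the left) on D2.5 Dox- than on D3.5 Dox+, with the number tested in brackets and all 8716 genes in the top bar (1.85% and 2.0%). Of the lists drawn, vascular and blood precursors (12 of 15) stand at the top and the epithelial junction list (7 of 19 lower) and the small fibroblast list (3 of 5 lower) at the bottom.

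Markers of other cell types were summed over whole lists. Counts of tested markers stand against 1.85% higher and 2.0% lower of all tested genes. Extraembryonic endoderm markers summed to 3788 on D2.5 Dox- (11 of 18 at 50 or more) and 2509 on D3.5 Dox+ (8 of 18). Of these markers, Afp (13.2 on D2.5 Dox-, 3.6 on D3.5 Dox+), Ttr (17.6 on D2.5 Dox-, 7.3 on D3.5 Dox+) and Hnf4a (11.0 on D2.5 Dox-, 2.1 on D3.5 Dox+) were near the floor on both. Of 13 tested, 6 were higher and 1 lower. The 6 were Gata6, Sox17, Sox7 and Pdgfra, counted above, with Lama1 and Col4a1. Lama1 had 65.6 on D2.5 Dox- and 10.1 on D3.5 Dox+ (1.64). Col4a1 had 545 on D2.5 Dox- and 225 on D3.5 Dox+ (1.22). Of the 6, 3 were under 50 on every Dox+ array. Trophoblast markers summed to 3382 (5 of 13) on D2.5 Dox- and 2465 (3 of 13) on D3.5 Dox+, with Elf5 at 1.6 on D2.5 Dox- and 3.3 on D3.5 Dox+ and Tpbpa at 5.0 on both. Of 5 tested, Cdx2 and Tfap2c (1.44) were higher, both under 50 on every Dox+ array, and 0 lower. Eomes and the keratin genes Krt18 and Krt8 make up most of either sum. Krt18 had 585 on D2.5 Dox- and 860 on D3.5 Dox+.

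Neural ectoderm markers summed to 1249 (6 of 18) on D2.5 Dox- and 2052 (5 of 18) on D3.5 Dox+, with 1 of 8 tested higher, Irx3 (1.12), and 1 lower, Pou3f1. Sox1, which defines this fate, was at 8.1 on D2.5 Dox- and 25.5 on D3.5 Dox+. Fibroblast markers summed to 616 (4 of 12) on D2.5 Dox- and 1100.0 (3 of 12) on D3.5 Dox+, and of 5 tested Dcn (-1.87), Acta2 (-1.17) and Tagln (-1.16) were lower and Pdgfrb (1.25) higher. The collagen genes Col1a1 (0.8 on D2.5 Dox-, 7.3 on D3.5 Dox+) and Col3a1 (5.6 on D2.5 Dox-, 6.1 on D3.5 Dox+) were near the floor. Col1a2, another collagen gene of the list, was measurable, with 76.3 on D2.5 Dox- and 47.7 on D3.5 Dox+ (0.53). The part of other cell types in the differences was not tested. RNA integrity, read as the Actb signal at the 3' end over that at the 5' end, was 1.93 on D2.5 Dox- and 1.94 on D3.5 Dox+, and 43.2% of genes on D2.5 Dox- and 43.4% on D3.5 Dox+ were at 50 or more.

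The 15 genes furthest each way close the account. Beside Ctla2a, Kdr, Hbb-bh1, Wnt5a, Fli1, Ctla2b, Nrp1, Mesp1, Pdgfra, Lhx1, Dll1 and Aplnr, the 15 highest were Igf2, Hapln1 and Rasgrp3. Igf2, the imprinted growth factor, had 13.3, 252, 386 and 2151 in Dox- from D0.5 to D3.5, and 4.3, 10.3, 23.8 and 30.5 in Dox+ (3.11). Hapln1, a hyaluronan link protein, had 100.4 on D2.5 Dox- and 3.2 on D3.5 Dox+ (2.60), and Rasgrp3, a Ras activator, had 269 on D2.5 Dox- and 41.4 on D3.5 Dox+ (2.31). Of these 15, 11 were not reached and 4, Aplnr, Lhx1, Pdgfra and Mesp1, were part reached. The 15 lowest were Abcc4, Lefty1, Gm9564, Ptchd1, Enpp3, Pou3f1, Slc35d3, Crb3, 1700019D03Rik, Slco4a1, Myb, Utf1, Lypd6b, Dcn and Lrp2, with differences from -2.44 to -1.82. Slc35d3, a nucleotide sugar transporter gene, had 130, 528, 37.2 and 9.2 in Dox-, and 81.3, 237, 420.5 and 214 in Dox+. Myb, a transcription factor of progenitor cells, had 91.4 on D2.5 Dox- and 389 on D3.5 Dox+. Both were bright on D1.5 Dox- and far lower a day later, Myb still above 50, and were higher on D3.5 Dox+.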

How the data were processed

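Total RNA of 9 mouse ES cell cultures was biotin-labelled and read on 1 array each. The authors deposited 1 table of linear intensity values per probe set, made with GCOS, Affymetrix's array software, per the submitters' processing notes; the sources used here give neither its version nor its background correction. After trimming 2% of the 45101 deposited probe sets at either end, the mean intensity was 100 on each array, so no further normalization was applied.

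Control probe sets and the 932 with several symbols were left out, and names were brought up to date from RefSeq (GRCm38.p6) by gene ID. Each gene was given by its brightest probe set. Values are log2(signal + 16), and the limits are a signal of 50 on at least 2 arrays and a 2-fold difference (Python 3.11.15, pandas 2.3.3, numpy 2.4.6). With 1 array a group no test or error could be had. Of the rules, only the counting of 2-fold differences was tested on simulated data. Precision is limited by having 1 array a group.

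The pair of arrays, the 33 gene lists and the rule for named genes were chosen with earlier results of these data known. Named are the 15 genes furthest each way, streak list members with a signal of 50 on either array, the 4 members of each other list furthest apart, the 10 largest rises reached and not reached, and 8 genes always given. Genes given beyond these, as examples or defining markers, were picked with their values in view. Alternatives were other pseudocounts, filters, probe sets, a quantile normalization and D2.5 Dox+ in place of D3.5 Dox+.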

Additional observations from a re-analysis of the deposited data

How the results depend on the processing

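No paired analysis was possible because each group is 1 array, and for the same reason no array could be left out. The count of genes at least 2-fold apart was 335 with the settings used, and 505 with a pseudocount of 1, 139 with 64, 180 with the mean of all probe sets and 192 with the second brightest. Higher genes on D2.5 Dox- numbered 161, against 77 with a pseudocount of 64, 101 with a signal limit of 100, 90 with the mean of probe sets and 93 with the second brightest. Lower genes numbered 174, against 284 and 62 with pseudocounts of 1 and 64, 90 with the mean of probe sets and 99 with the second brightest. Part reached streak genes numbered 15, against 9 with the mean of probe sets and 8 with the second brightest, and the streak median was 0.79, against 0.59 with a pseudocount of 64 and 0.54 with the mean of probe sets. A larger pseudocount shrinks differences of dim genes by construction, and dimmer probe sets lie nearer the floor; beyond that the cause was not tested. Set against D2.5 Dox+ instead, D2.5 Dox- had 297 genes higher, 388 lower and 685 apart, an SD of 0.62, 4 streak genes part reached and 30 not reached, and a streak median of 1.92. Of the 97 named genes at least 2-fold apart, 4 turned sign: Fzd8 (0.0713), Nrarp (-0.13) and Sema6d (-0.0375) with the second brightest probe set, and Tagln (0.60) against D2.5 Dox+. The share of higher calls lay between 42.6% and 55.4%, against 48.1% with the settings used. Signals under 50 lie near background, and a gene there may be on without being measurable.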

Other observations

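Of 9 imprinted growth genes tested, 2 were at least 2-fold higher on D2.5 Dox- and 0 lower, against 1.85% and 2.0% of all tested genes. Phlda2, an imprinted brake on placental growth, had 576, 276, 1939 and 4248 in Dox- from D0.5 to D3.5, and 640, 574, 426 and 599 in Dox+ (1.67), and Igf2 is described above. Peg3, another imprinted gene, was reached, with 3008 on D2.5 Dox- and 1688 on D3.5 Dox+ (0.83). Matrix and guidance genes had 6 of 20 higher and 1 lower. The proteoglycan gene Vcan had 275.0 on D2.5 Dox- and 79.8 on D3.5 Dox+ (1.60), and Plxna2, a semaphorin receptor, had 250.9 on D2.5 Dox- and 68.1 on D3.5 Dox+ (1.67). Sema3c, a secreted semaphorin, went the other way, with 32.0 on D2.5 Dox- and 139 on D3.5 Dox+ (-1.69). Of 11 IGF and retinoid binding genes, Igfbp4 (1.55) and Cyp26a1 were higher and Crabp2 (-1.03) lower.

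Of 21 hypoxia and glycolysis genes 3 were lower on D2.5 Dox- and 0 higher, against 2.0% and 1.85% of all tested genes. The list had a median of -0.34. The 3 lower ones were the glycolytic gene Aldoc (-1.71), the mitophagy gene Bnip3 (-1.30) and Pdk1, which holds pyruvate back from mitochondria (-1.11). Bnip3 had 1417, 1467, 741 and 1570 in Dox- from D0.5 to D3.5, and 1288, 2600, 2272 and 1848 in Dox+, so D2.5 Dox- was its lowest array after D0.5. Sterol synthesis genes had 0 of 14 past 2-fold in either direction and a median of -0.42, led by Fdft1, with 1034 on D2.5 Dox- and 1972 on D3.5 Dox+ (-0.92). The remaining lists had counts near the shares of all genes. Of 27 cell cycle genes 1 was higher, Ccnd2, the D-type cyclin, with 554.5 on D2.5 Dox- and 209 on D3.5 Dox+ (1.34). Of 21 chromatin and DNA methylation genes 1 was lower, Cbx7, a Polycomb subunit of pluripotent cells (-1.15). Of 15 p53 and stress genes and 9 germline genes 0 were 2-fold apart.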
